A study of Mus musculus with 10 samples.

Results

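The homeostatic microglia genes are 10 genes whose transcripts mark resting microglia, the resident macrophages of the brain and spinal cord. They are the nucleotide receptor genes P2ry12 and P2ry13, the lysophosphatidylserine receptor gene Gpr34, the chemokine receptor gene Cx3cr1, the growth factor receptor gene Csf1r, the surface protein genes Siglech, Fcrls and Tmem119, the secreted protein gene Olfml3 and the transcription factor gene Sall1. They were taken by name, matched to mouse Ensembl identifiers, and followed in a deposited table of read counts for 22024 genes. All 10 had 1 identifier each in the table, and all 10 passed the filter on low counts. Their mean count per library ran from 138 for Fcrls to 2016 for Csf1r.

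PolyA RNA was sequenced from lumbar spinal cords of 10 females at 3 months of age, with 1 library per animal. In the M337V group (animals 1, 2, 3, 7 and 9, n = 5) a bacterial artificial chromosome at the Rosa26 locus held human TARDBP with the M337V mutation, which is linked to amyotrophic lateral sclerosis (ALS). In the WT group (animals 8 and 10, n = 2) the same human segment without the mutation sat at the same site. The NTg group (animals 4, 5 and 6, n = 3) was labelled nontransgenic, on C57BL/6. The product of TARDBP is TDP-43, which binds RNA and acts in splicing and RNA stability, and all groups kept mouse Tardbp. The transgene is human genomic DNA and not a construct limited to microglia. Both lines went through targeted embryonic stem cells and backcrossing to C57BL/6J, per the design text, and the zygosity of these animals is not given in the sources used here. The comparisons were meant to address what the human gene, with or without its mutation, does to the cord of young adult mice. The library of animal 4, labelled NTg, held human TARDBP reads at the level of the transgenic libraries (below). Differences from NTg are therefore differences between labels and do not isolate the human gene.

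Microglia depend on signalling through the receptor encoded by Csf1r, whose ligands come from neurons and other glia. In their resting state they survey the tissue with moving processes. The adenine nucleotide receptor of P2ry12 draws these processes towards damaged cells, and the fractalkine receptor of Cx3cr1 receives a ligand made by neurons. Transforming growth factor beta and the transcription factor of Sall1 hold this resting state in place, and many of these genes fall when microglia become reactive. Transcripts of microglia in whole cord RNA are diluted by those of neurons, oligodendrocytes and astrocytes, so that fewer cells and less RNA per cell cannot be told apart in these libraries.

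The start regions of 3 members are shown because P2ry12 and P2ry13 lie side by side on the chromosome and because P2ry13 and Siglech had the most alike levels across libraries. Each is the RefSeq sequence on GRCm38.p6 from 250 bases before to 50 bases after the annotated start, 5′ to 3′ on the gene's strand. Capitals mark the letters GAGGAA or, on the other strand, TTCCTC. They are a form of the sites read by PU.1, the lineage factor of macrophages that Spi1 encodes.
P2ry12 (chr3:59262936-59263235, minus strand): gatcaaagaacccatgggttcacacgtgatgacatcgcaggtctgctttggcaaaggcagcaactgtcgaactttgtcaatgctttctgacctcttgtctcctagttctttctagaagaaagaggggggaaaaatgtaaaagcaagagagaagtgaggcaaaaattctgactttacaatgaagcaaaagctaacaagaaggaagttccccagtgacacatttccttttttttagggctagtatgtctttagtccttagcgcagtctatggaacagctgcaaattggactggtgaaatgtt
P2ry13 (chr3:59210833-59211132, minus strand): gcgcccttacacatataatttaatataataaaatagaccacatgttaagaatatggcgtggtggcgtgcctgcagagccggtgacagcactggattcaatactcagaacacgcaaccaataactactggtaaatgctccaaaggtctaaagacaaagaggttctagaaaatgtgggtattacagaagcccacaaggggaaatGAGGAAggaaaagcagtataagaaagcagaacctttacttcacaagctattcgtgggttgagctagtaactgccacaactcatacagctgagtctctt
Siglech (chr7:55767934-55768233, plus strand): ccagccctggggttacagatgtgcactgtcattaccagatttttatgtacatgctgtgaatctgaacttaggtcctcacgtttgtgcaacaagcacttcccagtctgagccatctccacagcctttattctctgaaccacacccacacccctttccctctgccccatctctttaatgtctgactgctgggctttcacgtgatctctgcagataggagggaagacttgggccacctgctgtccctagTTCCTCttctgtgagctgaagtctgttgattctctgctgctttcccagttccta
P2ry13 held GAGGAA at -48 from the start, and Siglech held it on the opposite strand at -4. The P2ry12 window held no match to all of these letters, and shorter forms of the site were not searched. Of the 10 members 7 had a RefSeq window (not Tmem119, Gpr34 or Csf1r), 9 windows in all, and 3 of the 9 held these letters on either strand, the last being that of Fcrls. Of all 32851 windows of 300 bases 28.3% held them, so the members' share lay near the background.

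On GRCm38 (GENCODE M21) P2ry12 (ENSMUSG00000036353) spans chromosome 3, 59216272 to 59262871, and P2ry13 (ENSMUSG00000036362) spans 59207892 to 59210882, both on the minus strand. Both lie within Med12l, a Mediator subunit gene on the plus strand whose span is 59005825 to 59318682. Med12l exons share 9 bases with P2ry12 and 0 with P2ry13. Fcrls (ENSMUSG00000015852) and Olfml3 (ENSMUSG00000027848) are also on chromosome 3, from 87250758 to 87263738 and from 103722222 to 103738001. Gpr34 (ENSMUSG00000040229) is on chromosome X, 13632089 to 13640858, inside Cask on the opposite strand with 0 shared exon bases. Tmem119 (ENSMUSG00000054675) is on chromosome 5, 113793729 to 113800516, and Siglech (ENSMUSG00000051504) on chromosome 7, 55768178 to 55778925. Sall1 (ENSMUSG00000031665) is on chromosome 8, 89027235 to 89044162. Cx3cr1 (ENSMUSG00000052336) is on chromosome 9, 119901616 to 120069879. Csf1r (ENSMUSG00000024621) is on chromosome 18, 61100598 to 61132149, and shares 873 exon bases with Hmgxb3 on the opposite strand. The libraries were stranded, but whether counting used the strand is not given, so reads in those 873 bases cannot be assigned with certainty. Hmgxb3 stood at 39.3 CPM (counts scaled to library size, with TMM factors between libraries) in NTg and 35.0 CPM in M337V, with a log2 difference of -0.17 (edgeR, adjusted p = 0.100), and Med12l differed by 0.04 (edgeR, adjusted p = 0.814).

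Library totals ran from 18724888 to 21041474 counts. Human TARDBP, counted under its own identifier, stood at 114 to 141 CPM in the 7 transgenic libraries, at 1 count in NTg 5 and at 4 counts in NTg 6. The library labelled NTg 4 held 2415 counts (118 CPM), against its label. It was kept in the NTg group as labelled, so every difference from NTg below includes it. Without it the log2 difference of P2ry12 in M337V was 0.60 (edgeR adjusted p = 0.0379), and all 10 members stayed above 0. WT 8 stood apart in the Hox genes of the caudal cord, with 12.6 CPM summed over 12 genes, against 41.2 CPM in M337V 3 and 117 to 224 CPM in the other 8 libraries. Neuron markers (12 genes) summed to 9159 to 11402 CPM and oligodendrocyte markers (10 genes) to 23454 to 38937 CPM, as the tissue label implies.

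**Figure D1:**
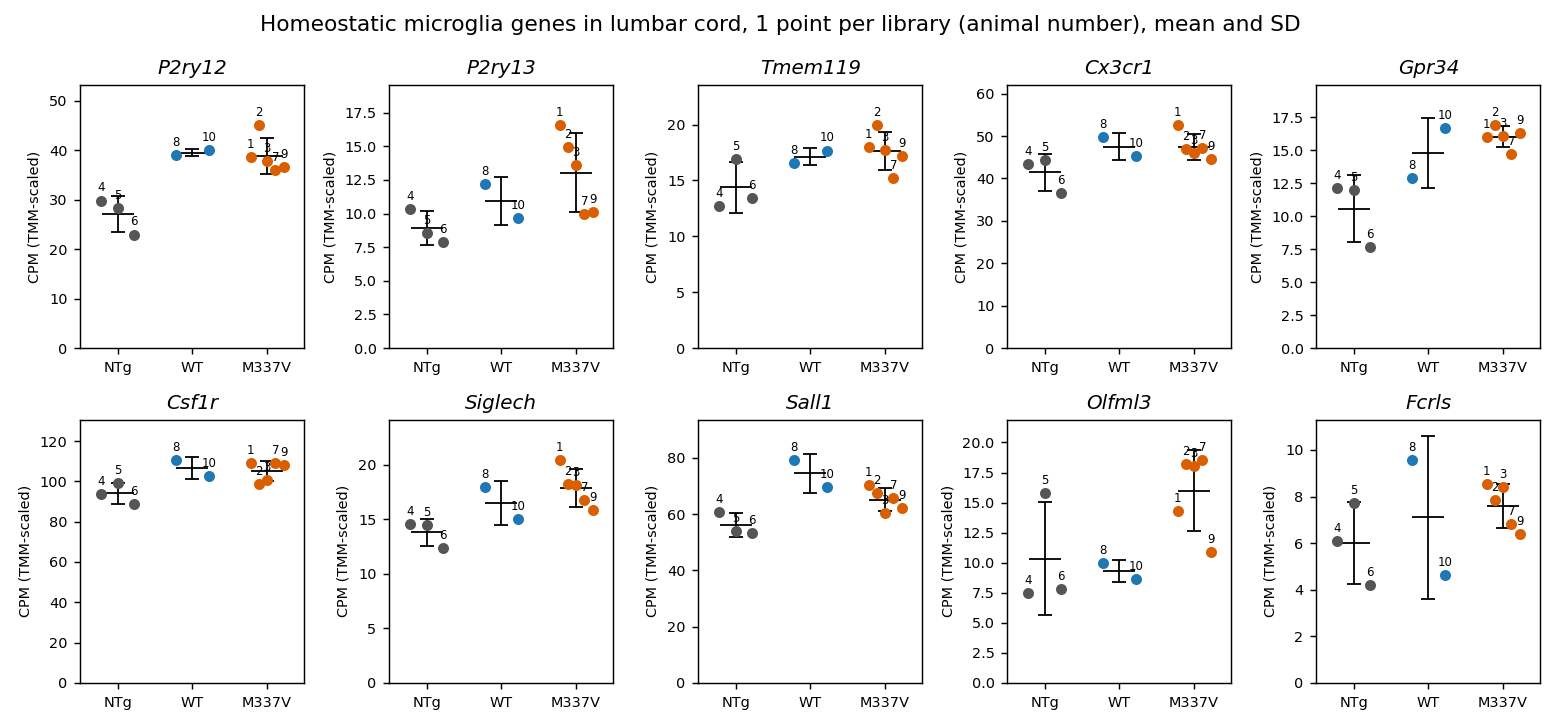
TMM-scaled CPM of each member (linear axes from 0) in NTg (grey), WT (blue) and M337V (orange), 1 point per library with its animal number; bars are the mean and SD. NTg 6 is the lowest library in 8 of the 10 panels.

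Per kilobase of exon, Csf1r was the most abundant member and Olfml3 the least. Csf1r stood at 17.7 ± 1.25 RPKM (CPM per kilobase of exon, SD over all 10 libraries), P2ry12 at 13.9 ± 2.56, Sall1 at 12.2 ± 1.504 and Cx3cr1 at 10.1 ± 0.938. Tmem119 (7.15 ± 0.942) and Gpr34 (6.76 ± 1.42) followed, and Tmem119 exceeded Gpr34 in 5 of 10 libraries, so these neighbours did not differ beyond their spread. Siglech (4.84 ± 0.702) exceeded P2ry13 (4.504 ± 1.13) in 7 of 10 libraries, again within their spread. Fcrls stood at 3.01 ± 0.742 RPKM and Olfml3 at 2.10 ± 0.733. Lengths were the merged exons of GENCODE M21, 6161 bases for Olfml3 and 2334 for Fcrls. By mean count Olfml3 (254) lay above Fcrls (138). Csf1r exceeded P2ry12 in 9 libraries, Sall1 exceeded Cx3cr1 in all 10, and P2ry12 exceeded Sall1 in 9. In NTg taken alone Sall1 (10.6 ± 0.807 RPKM, n = 3) and P2ry12 (10.6 ± 1.42) were level.

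In the comparison of M337V with NTg all 10 members had higher means in M337V, and P2ry12 and Gpr34 passed the test. P2ry12 rose 1.44-fold and Gpr34 1.52-fold. The test was edgeR's quasi-likelihood test with Benjamini-Hochberg adjustment over 15191 genes and a threshold of 0.05. Of all genes tested 4.29% passed in either direction, 2.67% as higher and 1.61% as lower, beside 2 of 10 members higher and 0 lower. A difference above 0 was found for 47.2% of all genes. The median log2 difference of the 10 members was 0.36 (range 0.16 to 0.63), and that of all genes was -0.01. At an unadjusted p below 0.05, 9 of 10 members were higher, all but Fcrls, beside 12.2% of all genes (24.5% in either direction). M337V and NTg libraries did not overlap for 4 of the 10 members (P2ry12, Gpr34, Siglech and Cx3cr1), beside 9.51% of all genes with all of M337V above all of NTg and 8.61% with all below. The members had been chosen with earlier results of these data known, so their number past the threshold describes them and is not independent support.

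Among the nucleotide receptors, P2ry12 had 29.8 CPM in NTg 4, 28.4 in NTg 5 and 23.0 in NTg 6, while M337V 1, 2, 3, 7 and 9 had 38.6, 45.1, 37.9, 35.9 and 36.5 CPM. Every M337V library lay above every NTg library. The log2 difference was 0.52 ± 0.09 (SE, edgeR adjusted p = 0.0223), with group means of 27.1 ± 3.62 (SD, n = 3) and 38.8 ± 3.66 CPM (SD, n = 5). It did not pass without NTg 6 (0.41, edgeR adjusted p = 0.132), without M337V 2 (0.46, edgeR adjusted p = 0.0504) or without M337V 1 to 3 together (0.43, edgeR adjusted p = 0.202). P2ry13, a second receptor for adenosine diphosphate, had 10.3 CPM in NTg 4, 8.57 in NTg 5 and 7.87 in NTg 6, while M337V 1, 2, 3, 7 and 9 had 16.6, 14.97, 13.6, 9.98 and 10.1 CPM. M337V 7 and 9 fell inside the range of NTg, while M337V 1 to 3 lay above it. Its log2 difference of 0.55 ± 0.18 missed the threshold (edgeR adjusted p = 0.0915). Without M337V 7 and 9 it was 0.76 (edgeR adjusted p = 0.0189), and without M337V 1 to 3 it was 0.18 (edgeR adjusted p = 0.653).

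Gpr34, whose receptor binds lysophosphatidylserine, had 12.1 CPM in NTg 4, 11.97 in NTg 5 and 7.64 in NTg 6, while M337V 1, 2, 3, 7 and 9 had 15.96, 16.9, 16.1, 14.7 and 16.3 CPM. The groups did not overlap, and the M337V libraries varied by 4.98% of their mean (coefficient of variation), against 24.0% in NTg. The log2 difference was 0.60 ± 0.14 (edgeR adjusted p = 0.041). Gpr34 passed without M337V 7 and missed the threshold without any other single library (edgeR adjusted p = 0.0551 without NTg 4 to 0.163 without NTg 6), and also after removal of each library's trend over GC content and transcript length (0.45, edgeR adjusted p = 0.0685).

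Cx3cr1 had 43.4 CPM in NTg 4, 44.4 in NTg 5 and 36.5 in NTg 6, while M337V 1, 2, 3, 7 and 9 had 52.6, 47.1, 46.0, 47.1 and 44.6 CPM. The groups came close, with M337V 9 only just above NTg 5, and the log2 difference of 0.20 ± 0.08 missed the threshold (edgeR adjusted p = 0.14). Csf1r had 93.9 CPM in NTg 4, 99.4 in NTg 5 and 89.0 in NTg 6, while M337V 1, 2, 3, 7 and 9 had 109, 98.8, 100.4, 109 and 108 CPM. M337V 2 lay below NTg 5, and the difference of 0.16 ± 0.06 missed the threshold (edgeR adjusted p = 0.108). Csf1r varied least of the members within NTg and M337V, by 5.52% and 4.84% of its mean. With the GC content and length trends removed it was 0.27 (edgeR adjusted p = 0.0191).

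Of the surface proteins, Siglech encodes a member of the Siglec family of lectin-like receptors. Its NTg libraries 4, 5 and 6 held 14.5, 14.5 and 12.4 CPM, and the M337V libraries 20.5, 18.2, 18.1, 16.7 and 15.9 CPM for animals 1, 2, 3, 7 and 9, without overlap. Its log2 difference of 0.37 ± 0.10 came just short of the threshold (edgeR adjusted p = 0.0559). It passed with DESeq2 (adjusted p = 0.019), with limma-voom (adjusted p = 0.0333) and in 5 further settings. Tmem119, a membrane protein gene used as a microglia marker, stood at 12.7, 16.9 and 13.5 CPM in NTg and at 15.2 to 19.96 CPM in M337V, where NTg 5 lay inside the M337V range (log2 0.29 ± 0.11, edgeR adjusted p = 0.121). Fcrls, an Fc receptor-like gene, had the fewest reads of the members, with 6.07, 7.73 and 4.19 CPM in NTg and 6.39 to 8.54 CPM in M337V. Its difference of 0.34 had a 95% interval from -0.17 to 0.86 (edgeR adjusted p = 0.402).

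Sall1, the transcription factor gene, had 60.9 CPM in NTg 4, 53.8 in NTg 5 and 53.2 in NTg 6, while M337V 1, 2, 3, 7 and 9 had 70.2, 67.4, 60.2, 65.8 and 62.1 CPM. M337V 3 lay just under NTg 4, and the log2 difference of 0.22 ± 0.07 missed the threshold (edgeR adjusted p = 0.0895). It passed with DESeq2 (adjusted p = 0.0404), limma-voom (adjusted p = 0.0342) and after removal of the trends (0.33, edgeR adjusted p = 0.0205). Olfml3, which encodes a secreted olfactomedin-like protein, gave the largest difference and the widest interval of the members. Its levels were 7.44, 15.8 and 7.82 CPM in NTg 4, 5 and 6 and 14.3, 18.2, 18.1, 18.6 and 10.9 CPM in M337V 1, 2, 3, 7 and 9. NTg 5 thus lay among the M337V libraries and M337V 9 nearer to NTg 4 and 6, and the log2 difference was 0.63 ± 0.25 (95% interval 0.09 to 1.17, edgeR adjusted p = 0.14). Without NTg 5 it was 1.07 (edgeR adjusted p = 0.0375).

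**Figure D2:**
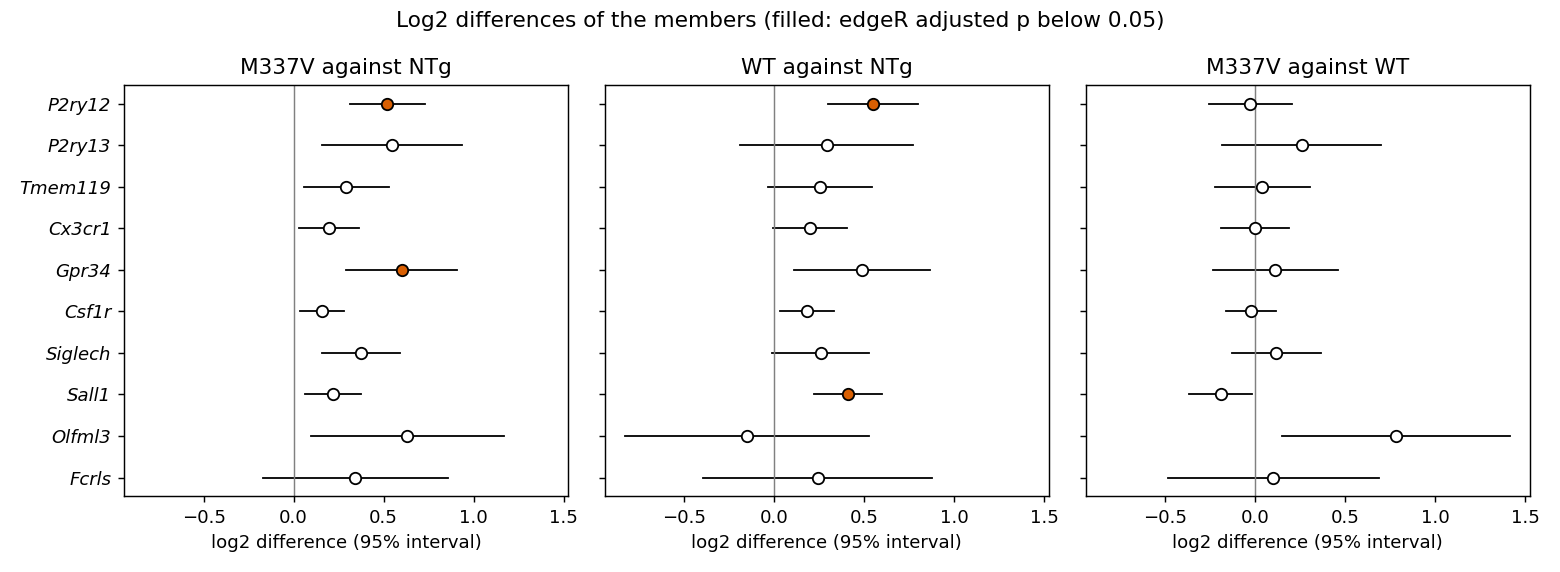
Log2 difference of each member in the 3 comparisons with its 95% interval (horizontal axis), filled where the edgeR adjusted p was below 0.05. All 10 points lie above 0 for M337V against NTg and 9 of 10 for WT against NTg, while 8 of the 10 intervals for M337V against WT include 0 (not those of Sall1 and Olfml3).

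In the comparison of WT with NTg, P2ry12 rose again and Sall1 rose with it, against the same NTg libraries. P2ry12 stood at 39.0 and 39.99 CPM in WT 8 and 10, above all NTg libraries, with a log2 difference of 0.55 ± 0.12 (edgeR adjusted p = 0.0247). Sall1 stood at 79.3 and 69.6 CPM in WT 8 and 10, also above all of NTg, with 0.41 ± 0.09 (edgeR adjusted p = 0.0248). Of all genes 5.64% passed in either direction, 3.59% as higher and 2.05% as lower, beside 2 of 10 members higher and 0 lower. At an unadjusted p below 0.05 there were 4 members, all higher, beside 12.8% of all genes as higher and 25.3% in either direction. Of the members 9 had a difference above 0, beside 46.7% of all genes, with a median of 0.26, and the median of all genes was -0.02. Without overlap between groups were 6 members (P2ry12, Cx3cr1, Gpr34, Csf1r, Siglech and Sall1), beside 19.6% of all genes with both WT libraries above all of NTg and 22.1% with both below. With 2 WT animals the calls moved with single libraries. P2ry12 passed without NTg 4 or NTg 5 and missed without NTg 6, WT 8 or WT 10 (edgeR adjusted p = 0.0791, 0.062 and 0.0908). Sall1 passed without NTg 4 or WT 10 and missed without NTg 5, NTg 6 or WT 8 (edgeR adjusted p = 0.0568, 0.0898 and 0.102).

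The other members missed the threshold in WT. Gpr34 stood at 12.9 and 16.7 CPM in WT 8 and 10 (log2 0.49 ± 0.17, edgeR adjusted p = 0.107). Cx3cr1 stood at 49.8 and 45.3 CPM (0.20 ± 0.09, edgeR adjusted p = 0.218), a difference nearly the same in size as in M337V. Csf1r stood at 111 and 103 CPM (0.18 ± 0.07, edgeR adjusted p = 0.13). Siglech stood at 17.9 and 15.1 CPM, Tmem119 at 16.6 and 17.7 CPM and P2ry13 at 12.2 and 9.65 CPM, with log2 differences of 0.26, 0.25 and 0.29. Fcrls stood at 9.57 CPM in WT 8, the highest of all 10 libraries, and at 4.63 CPM in WT 10, close to NTg 6, the lowest. Olfml3 stood at 9.94 and 8.67 CPM and was the member with a difference below 0 (log2 -0.15, 95% interval -0.83 to 0.53).

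The mutation itself was addressed by M337V against WT, a direct test between the transgenic groups. No member passed (edgeR, 0 of 10, beside 0% of all genes), DESeq2 and limma-voom also called 0 members, and 2 members had an unadjusted p below 0.05, beside 6.66% of all genes (3.55% as higher). Of the members 6 had a difference above 0, beside 50.2% of all genes. For P2ry12 the log2 difference was -0.026 with a 95% interval from -0.26 to 0.20. For Csf1r it was -0.021 (-0.16 to 0.12), for Cx3cr1 -0.0014 (-0.19 to 0.19) and for Tmem119 0.039 (-0.23 to 0.30). The intervals were wider for Gpr34 (0.11, -0.23 to 0.46), Siglech (0.12, -0.13 to 0.37), P2ry13 (0.26, -0.18 to 0.70) and Fcrls (0.10, -0.48 to 0.69). Sall1 was lower in M337V by a log2 difference of -0.19 (-0.36 to -0.019), with an unadjusted p = 0.0324 and adjusted p = 0.742 in edgeR. Olfml3 was higher by 0.78 (0.15 to 1.41), with an unadjusted p = 0.0193 and adjusted p = 0.728, and was the 1 member whose M337V libraries all lay above both WT libraries, beside 4.85% of all genes (4.65% had all M337V libraries below). Both comparisons against NTg share their 3 controls, so likeness between them was partly given by the design.

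**Figure D3:**
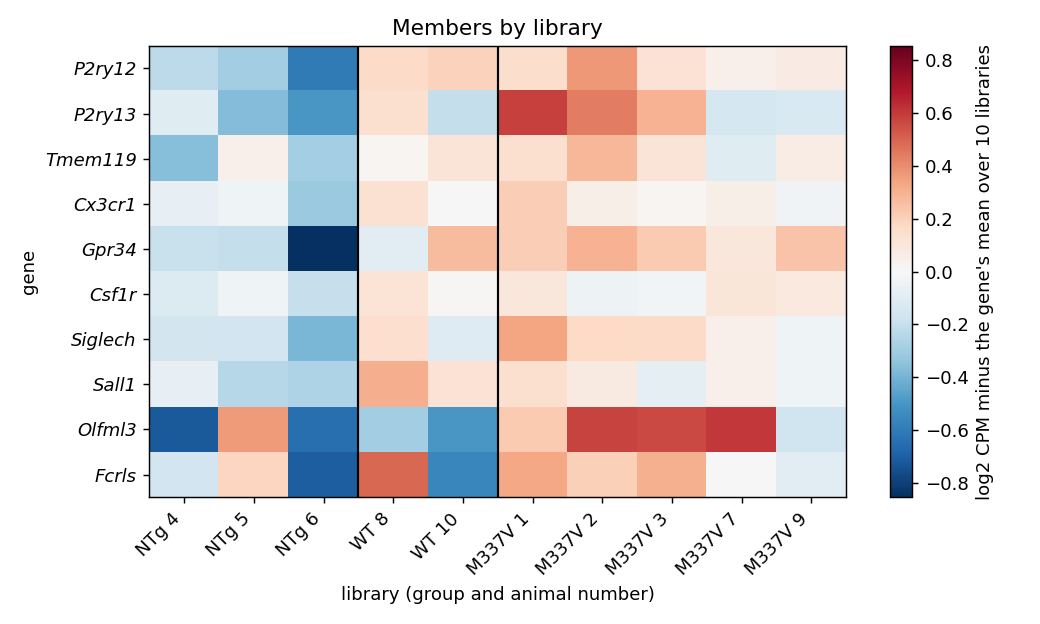
Log2 CPM of each member minus its mean over the 10 libraries (colour scale, blue low and red high), with libraries on the horizontal axis ordered by group. The column of NTg 6 is blue for all 10 genes, and that of NTg 4 is too, while the rows of Olfml3 and Fcrls change colour within groups.

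Across libraries the members moved largely in one direction, and the libraries labelled NTg set the low end. Summed over the 10 members, NTg 4, 5 and 6 held 291, 301 and 255 CPM, WT 8 and 10 held 358 and 330, and M337V 1, 2, 3, 7 and 9 held 364, 354, 336.5, 340.1 and 328. NTg 6 was the lowest library for 8 members and NTg 4 for the other two, Tmem119 and Olfml3. In NTg 4 and NTg 6 all 10 members were below their own mean, against 7 in NTg 5, 0 to 6 in M337V and 2 to 5 in WT. Among the 45 pairs of members all Pearson correlations of log2 CPM over the 10 libraries were above 0, with a median of 0.67. With group means taken out the median was 0.41, and 40 of 45 were above 0. The highest were P2ry13 with Siglech (0.93, and 0.88 within groups), Cx3cr1 with Siglech (0.92 and 0.89) and P2ry12 with Gpr34 (0.91 and 0.78). The lowest was Sall1 with Olfml3 (0.04). These values describe 10 libraries whose points share 1 scaling factor each, and no values for pairs of other genes are given beside them. Outside the members, 405 of 14020 genes had r above 0.8 with the members' mean.

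The members' shares of their summed reads were compared as a description, with no test between members. Of the reads of the 10 members, Csf1r took 33.4% in NTg and 30.5% in M337V on average, while P2ry12 took 9.55% and 11.3% and Gpr34 3.71% and 4.65%. In WT these shares were 31.0% for Csf1r, 11.5% for P2ry12 and 4.33% for Gpr34. With trends over GC content and transcript length taken out, the differences of these genes in M337V against NTg lay closer together on the log2 scale, at 0.27 for Csf1r (0.16 without removal), 0.41 for P2ry12 (0.52) and 0.45 for Gpr34 (0.60). Within the M337V group, animals 1 to 3 (library numbers 10 to 12) and animals 7 and 9 (library numbers 5 and 7) differed for some members. P2ry13 stood at 13.6 to 16.6 CPM in the first set and at 9.98 and 10.1 CPM in the second. Siglech stood at 18.1 to 20.5 against 15.9 and 16.7 CPM. P2ry12, Tmem119 and Fcrls were likewise higher in every library of the first set, which makes 5 of 10 members, beside 15.8% of all genes. The sets had the same genotype label. The NTg libraries had numbers 2, 3 and 4, below those of all M337V libraries and of WT 8 and 10 (numbers 6 and 8). Library number thus cannot be told apart from the NTg label, and its part in the comparison with NTg was not tested. Without M337V 1 to 3 all 10 differences against NTg stayed above 0, with a median of 0.21, and 0 members passed, beside 0.0198% of all genes.

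Among other microglia and macrophage genes Ly86 and Ctss rose in M337V. Of 30 such genes, all tested, 2 rose in M337V against NTg and 0 fell (edgeR), with medians of 0.10 and 0.032 in M337V and WT. In M337V 23 of 30 lay above 0, 7 were higher and 0 lower at an unadjusted p below 0.05, and DESeq2 called 4 and limma-voom 5. In WT against NTg edgeR called 0 of them (4 higher and 2 lower at an unadjusted p below 0.05), DESeq2 2 and limma-voom 0. Ly86, which encodes a partner of a Toll-like receptor relative, rose from 9.92 CPM in NTg to 14.6 CPM in M337V (0.56 ± 0.10, edgeR adjusted p = 0.0218). Ctss, a lysosomal protease gene, rose from 78.5 to 103 CPM (0.39 ± 0.08, edgeR adjusted p = 0.0302).

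Of the 12 transcription factor genes of microglia edgeR called 0 in any of the 3 comparisons, with a median of -0.043 in M337V against NTg. In that comparison 1 had an unadjusted p below 0.05 and DESeq2 and limma-voom called 0, while in WT against NTg DESeq2 called 1. Ikzf1 (log2 -0.34, edgeR adjusted p = 0.105) and Mef2a (0.07, edgeR adjusted p = 0.369) had the smallest p. Of 8 genes of the colony stimulating factor axis edgeR, DESeq2 and limma-voom called 0 in M337V against NTg, 2 had an unadjusted p below 0.05, and all 8 lay below 0 (median -0.24). In WT Il34, which encodes a ligand of the Csf1r protein, fell from 15.3 to 9.95 CPM (log2 -0.62, edgeR adjusted p = 0.0274), and Csf2ra, a receptor chain for another colony stimulating factor, fell from 15.4 to 10.98 CPM (-0.49, edgeR adjusted p = 0.0465). In WT DESeq2 called 3 genes of this axis and limma-voom called 0. Csf2ra (-0.33, edgeR adjusted p = 0.0743) and Csf2rb (-0.58, edgeR adjusted p = 0.152) had the smallest p of this axis in M337V.

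The transforming growth factor beta axis held 13 genes with a median of -0.01 in M337V and 0.05 in WT. Itgb8, an integrin chain that frees the latent growth factor, rose from 238 CPM in NTg to 283 CPM in M337V (log2 0.25 ± 0.05, edgeR adjusted p = 0.0335) and to 333 CPM in WT (0.48, edgeR adjusted p = 0.00957). Tgfbr1, the type I receptor gene, rose from 51.2 to 59.3 CPM in M337V (0.21 ± 0.05, edgeR adjusted p = 0.0445) and to 63.1 CPM in WT (0.30, edgeR adjusted p = 0.0256). Itgav (0.38) and Smad7 (0.30) also rose in WT, among 5 of 13 genes (6 with DESeq2 and 2 with limma-voom). At an unadjusted p below 0.05 in edgeR, 5 of the 13 were higher and 1 lower in M337V. In WT 5 were higher and 3 lower. These genes are also transcribed in other cells of the cord.

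Around the nucleotide receptors 2 of 15 genes rose in each comparison with NTg, and 0 fell (limma-voom called 3 in M337V and 1 in WT). They were Enpp1 (27.6 CPM in NTg, 51.5 in M337V and 42.0 in WT) and Enpp2 (627, 800.0 and 881 CPM), ectoenzyme genes of nucleotides and lysophospholipids. At an unadjusted p below 0.05 in edgeR, 4 of the 15 were higher and 2 lower in M337V. In WT 4 were higher and 1 lower. Of the 8 tested genes of fractalkine and lysophosphatidylserine supply edgeR, DESeq2 and limma-voom called 0 in each comparison, and 2 had an unadjusted p below 0.05 in M337V against NTg. Cx3cl1, the fractalkine gene, stood at 195 CPM in NTg and 169 CPM in M337V (-0.20, edgeR adjusted p = 0.0965), and Abhd16a, a lysophosphatidylserine-producing lipase gene, gave -0.13 (edgeR adjusted p = 0.127).

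Disease-associated microglia genes, which rise when microglia leave the resting state, did not pass the test. Of 19 listed genes 16 were tested, edgeR, DESeq2 and limma-voom called 0 in each of the 3 comparisons, 8 lay above 0 in M337V against NTg, and the median was 0.0041. Cd63 (0.17, edgeR adjusted p = 0.146) and Gpnmb (0.71, 2.11 against 3.46 CPM, edgeR adjusted p = 0.152) had the smallest p. These were the 2 genes of the list with an unadjusted p below 0.05 in M337V against NTg, and none had one in WT against NTg.

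**Figure D4:**
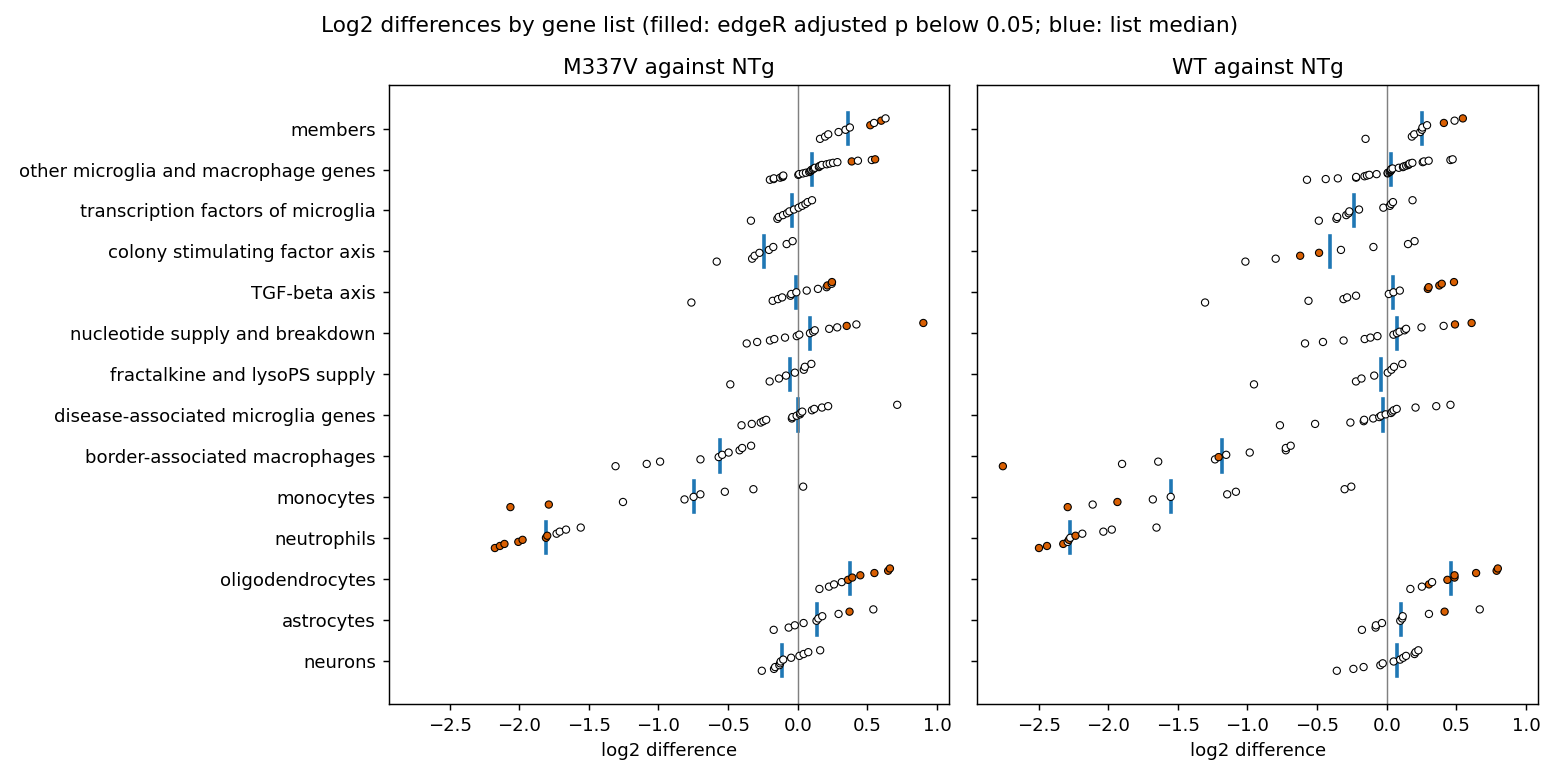
Log2 differences (horizontal axis) of the members and of the genes of 13 lists in M337V against NTg and in WT against NTg, filled where the edgeR adjusted p was below 0.05; blue lines are list medians. The members and the oligodendrocyte markers lie to the right of 0 in the left panel, all tested neutrophil and border macrophage genes and all but 1 monocyte gene to the left.

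Among markers of other cells, those of oligodendrocytes moved with the members, and those of neutrophils and monocytes moved against them. Oligodendrocyte markers summed to 23454 to 27991 CPM in NTg, 34365 to 38263 CPM in WT and 31559 to 38937 CPM in M337V, and 6 of 10 rose in M337V and 7 of 10 in WT (limma-voom called 3 in WT), with medians of 0.38 and 0.46. The oligodendrocyte sum and the sum of the members were both lowest in NTg 6, then NTg 4, then NTg 5. Neutrophil genes summed to 530, 159 and 250 CPM in NTg 4, 5 and 6, to 29.1 and 100.25 CPM in WT and to 53.5 to 139 CPM in M337V, and 7 of 11 fell in M337V and 5 of 11 in WT, where limma-voom called 0. Monocyte genes summed to 124 to 207 CPM in NTg, 72.4 to 86.4 CPM in WT and 68.6 to 162 CPM in M337V (2 of 9 tested fell in M337V and 2 in WT against NTg, where limma-voom called 0 in WT). Border-associated macrophages, which share Csf1r and Cx3cr1 with microglia, had low marker sums of 27.5 to 53.7 CPM in NTg, 17.9 to 19.4 CPM in WT and 16.9 to 35.8 CPM in M337V. Of their 10 tested genes edgeR, DESeq2 and limma-voom called 0 in M337V, 3 had an unadjusted p below 0.05, and all 10 lay below 0 (median -0.56), while F13a1 (log2 -1.21, edgeR adjusted p = 0.0472) and Clec10a (-2.76, edgeR adjusted p = 0.0469) fell in WT, where DESeq2 called 3 of the list and limma-voom 0. In M337V against NTg 1 of 10 astrocyte, 0 of 12 neuron, 0 of 4 lymphocyte, 0 of 10 Schwann cell and 0 of 11 meningeal genes passed in edgeR (3, 2, 0, 3 and 2 at an unadjusted p below 0.05), 2 of 10 muscle and 1 of 12 vessel genes fell, and DESeq2 called 1, 1, 0, 2, 0, 3 and 1 of these lists in turn. All 10 muscle genes were lower in M337V at an unadjusted p below 0.05 (limma-voom called 5), as were 4 of 12 vessel genes. The muscle genes had a median of -2.66 and summed to 169 to 1234 CPM in NTg, 20.7 to 706 CPM in WT and 32.7 to 205 CPM in M337V. No marker of these lists was at 0 in all libraries. The part of these cells and tissues in the members' differences was not tested.

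**Figure D5:**
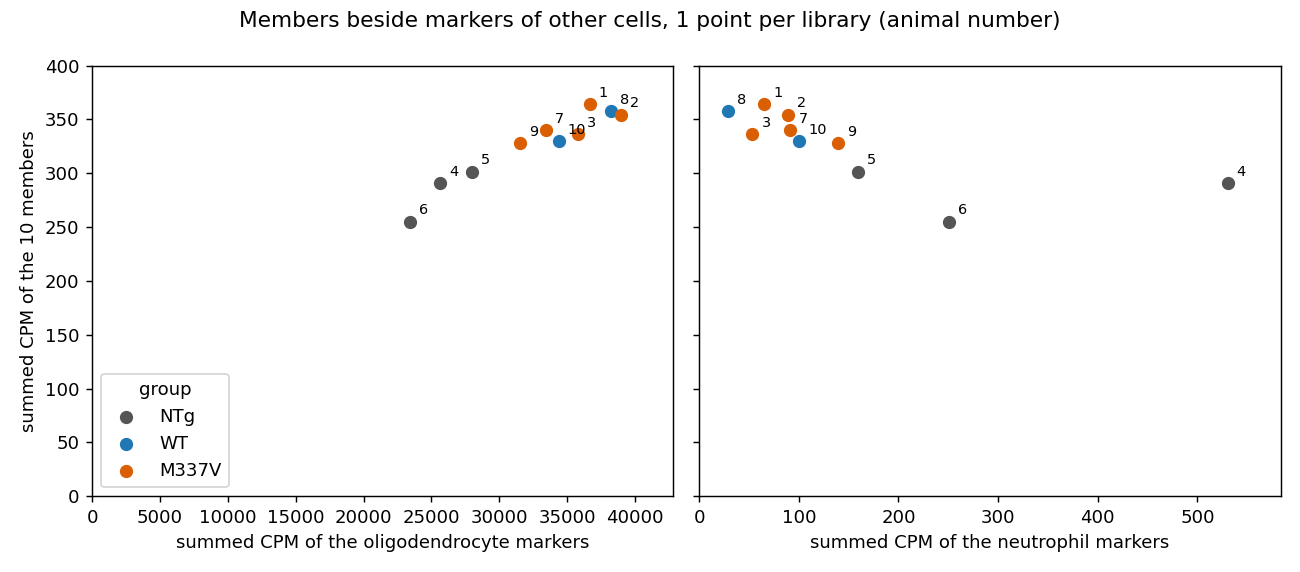
Summed CPM of the 10 members (vertical axis) against summed CPM of 10 oligodendrocyte markers and of 11 neutrophil markers (horizontal axes, linear), 1 point per library with its animal number. The 3 NTg libraries have the lowest member and oligodendrocyte sums and the highest neutrophil sums.

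Genes outside the list were ranked by how closely their log2 CPM followed the mean of the members over the 10 libraries, among the 14020 genes whose mean reached 1 CPM. The 10 closest were Josd2 (Pearson r = 0.96), Taldo1 (0.95), Tmeff2 (0.95), Shcbp1l (0.94), Dock10 (0.94), Slc44a1 (0.94), Aif1 (0.94), Mbp (0.93), Sft2d1 (0.93) and Mut (0.93). Aif1, which encodes the microglial protein IBA1, stood at 2.91 CPM in NTg, 3.60 in WT and 3.93 in M337V. Mbp, the myelin basic protein gene of oligodendrocytes, stood at 10722, 14510 and 14643 CPM. With group means taken out the values were 0.80 for Aif1, 0.87 for Mbp and 0.94 for Josd2. In all 40 genes exceeded 0.9, and the ranking is a description of 10 libraries.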

How the data were processed

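The authors deposited unnormalised counts, whole numbers for each gene in each library. Per the submitters' processing notes the tools were STAR 2.4.2a, Trimmomatic 0.32, featureCounts with Subread 1.4.6, DESeq2 1.14.1, Salmon 0.8.2 and Picard 2.6.0, with no role named. Per the labels' protocols the kit was stranded. No source used here names a build, an annotation or a strand setting. Genotype labels gave the groups. Litters and batches are not stated, so p-values measure the spread between these animals only. GENCODE M21 (GRCm38) named 21774 of the 22024 identifiers.

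The filter filterByExpr (minimum count 10, minimum total 15) kept 15191 genes. They were scaled by TMM and tested by edgeR 4.0.16 (quasi-likelihood, R 4.3.3) in 1 fit of the 10 libraries with 1 mean per group. The script was tested on simulated data.

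Members and lists were chosen with earlier results of these data known. Named were all members, list genes that passed (up to 4 per list and comparison) and the 2 with the smallest p in M337V against NTg for the lists of microglia and signalling, the 10 genes of closest pattern, and genes that overlap or neighbour members. Lists of other cells are given by counts and sums only, apart from border macrophages. Alternatives were RLE factors, no filter or a mean of 1 CPM, the compared groups alone, DESeq2 1.42.0, voom with quality weights (limma 3.58.1), robust dispersions, GC and length trends taken out, and libraries left out.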

Additional observations from a re-analysis of the deposited data

How the results depend on the processing

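In M337V against NTg, where 2 of 10 members passed, 5 passed with DESeq2, 4 with limma-voom, 4 with GC content and length trends removed, 4 without M337V 7 and 9 and 0 without M337V 1 to 3. Leaving out single libraries gave 0 (M337V 2 or NTg 6) to 2. In WT against NTg 2 passed, beside 5.64% of all genes. There 0 passed in a fit of both groups alone (1.72% of all genes) and 1 with limma-voom (1.42% of all genes). Leaving out a single NTg library gave 0 (NTg 6) to 2 (NTg 4). In M337V against WT 0 passed in every setting run. All genes called in M337V against NTg were 4.29% in the fit reported, 10.1% with DESeq2, 8.66% with limma-voom and 7.08% with both groups alone. They were 4.75% with the trends removed, 7.59% without M337V 7 and 9 and 0.0198% without M337V 1 to 3. Without M337V 2 they were 0.349%, and without NTg 6 they were 0.0132%. All 10 members stayed above 0 in every setting of M337V against NTg. The cause of these changes was not tested.

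Directions turned mostly where differences were near 0. In M337V against WT they were 0.0013 for Cx3cr1 with limma-voom and -0.027 for Tmem119 with trends removed. Without NTg 4 and WT 8 they were -0.0064 (Tmem119), 0.067 (Cx3cr1), -0.059 (Gpr34) and 0.033 (Csf1r), and Fcrls was -0.36 in WT against NTg. Without M337V 1 to 3 they were -0.12 (P2ry13), -0.086 (Tmem119), 0.021 (Csf1r), -0.022 (Siglech) and -0.11 (Fcrls), and without M337V 7 and 9 they were 0.033 for P2ry12 and 0.027 for Cx3cr1. Without single libraries they ran from -0.0089 to 0.087 (Tmem119), -0.068 to 0.068 (Cx3cr1), -0.058 to 0.31 (Gpr34), -0.074 to 0.034 (Csf1r), -0.0048 to 0.25 (Siglech) and -0.33 to 0.72 (Fcrls), and in WT against NTg from -0.33 to 0.28 (Olfml3) and -0.37 to 0.68 (Fcrls). No paired analysis was possible because the groups share no animal number.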

Other observations

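Olfml3 fell into a lower and an upper range over the libraries, a split seen after its values were known and not tested. It stood at 7.44 to 10.9 CPM in NTg 4, NTg 6, WT 8, WT 10 and M337V 9, and at 14.3 to 18.6 CPM in NTg 5 and M337V 1, 2, 3 and 7, with no library between. Each range held libraries of more than 1 genotype.

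P2ry14 and Gpr171, receptor genes in the same span of Med12l as P2ry12 and P2ry13, had far fewer reads. P2ry14 stood at 2.49 CPM in NTg, 1.80 in WT and 2.47 CPM in M337V, with a log2 difference of -0.0072 in M337V against NTg (edgeR adjusted p = 0.989). Gpr171 reached at most 0.413 CPM. The difference between P2ry12 and P2ry14 was not tested.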
